A study of Mus musculus with 8 samples.

Results

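Reprogrammed chondrocytes were compared with differentiated chondrocytes on Illumina expression arrays of mouse bone marrow cells. The comparison takes 2 arrays of the 8 in the series, 1 for each chondrocyte label, chosen by the labelled cell type and by no measured value. A further 2 arrays, of undifferentiated mesenchymal stem cells (MSCs), served as reference levels. All cells came from adult bone marrow MSCs of C57BL/6J mice, and the labels name no allele, transgene or treatment. Differentiated chondrocytes carried the title mark d28 and reprogrammed chondrocytes p1, and the MSC arrays were marked d0 and p4. The labels do not say what d and p stand for or how cells were reprogrammed, and nothing in them says whether arrays came from separate cultures or animals. The other 4 arrays held differentiated adipocytes (d7) and osteocytes (d21) and reprogrammed adipocytes and osteocytes (each p1). The series title speaks of reprogramming lineage-committed cells, and the chondrocyte pair asks which genes differ between cells labelled as chondrocytes and cells labelled as reprogrammed from that lineage.

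Marrow MSCs are stromal progenitors with the capacity to make cartilage, bone and fat. Chondrocytes arise under the transcription factor Sox9 with its partners Sox5 and Sox6, which drive type II collagen and aggrecan, and in growing bones they become hypertrophic, express type X collagen and the collagenase Mmp13, and give way to bone. Osteoblasts depend on the transcription factors Runx2 and Sp7 (osterix) and secrete type I collagen, bone sialoprotein (Ibsp) and osteocalcin (Bglap). In bulk RNA of a culture, fewer cells of a type and less RNA per cell cannot be told apart.

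All levels below are the authors' deposited log2 values, 1 probe for each gene, and a level of 6 was taken as the limit under which a probe was too dim to be read as more than a bound. A log2 difference is reprogrammed minus differentiated chondrocytes after an offset of 16 was added on the linear scale, which understates the change of dim genes. With 1 array against 1 there is no replicate check and no test of the pair itself. Genes were therefore counted by size, and "higher" or "lower" in such a count means a difference of at least 2-fold. A member of a gene list that was at the level on 1 array alone had to lie on that array's side, so a list's median is also given over all its members with a probe (-0.04 over all 19057 genes). Each array had 12610 of 45281 probes at the level of 6. Probes at 0 numbered 4317 to 5204 on arrays with a d mark and 6815 to 7652 on arrays with a p mark. The chondrocyte arrays (5204 and 7004) carried different marks, with 1 MSC array for each mark. Arrays that share a mark are called an array set below, though no label names a batch. Beside the plain difference a blocked difference is given where it matters, in which each chondrocyte array was first set against the MSC array of its own set. Array set and cell state cannot be told apart between the MSC arrays, so the blocked difference is a second calculation and not a correction.

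Of 8248 genes at the level on at least 1 chondrocyte array, 717 (8.69%) were higher and 963 (11.7%) lower in reprogrammed chondrocytes. A bound alone held for 205 of the higher and 401 of the lower genes, whose dimmer array was under the level. With dim values raised to the level, 589 genes were still at least 2-fold higher and 771 lower. At that bound 197 genes were at least 4-fold lower against 70 higher, 24 against 3 at 16-fold, and 1 against 0 at 64-fold. Across these genes the chondrocyte arrays correlated at r = 0.866, a value across genes, which are not independent replicates. With the array set as a block 770 (9.34%) were higher and 967 (11.7%) lower, and 317 of the 717 and 617 of the 963 were at least 2-fold the same way in both calculations, while 82 and 74 turned sign.

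**Figure D1:**
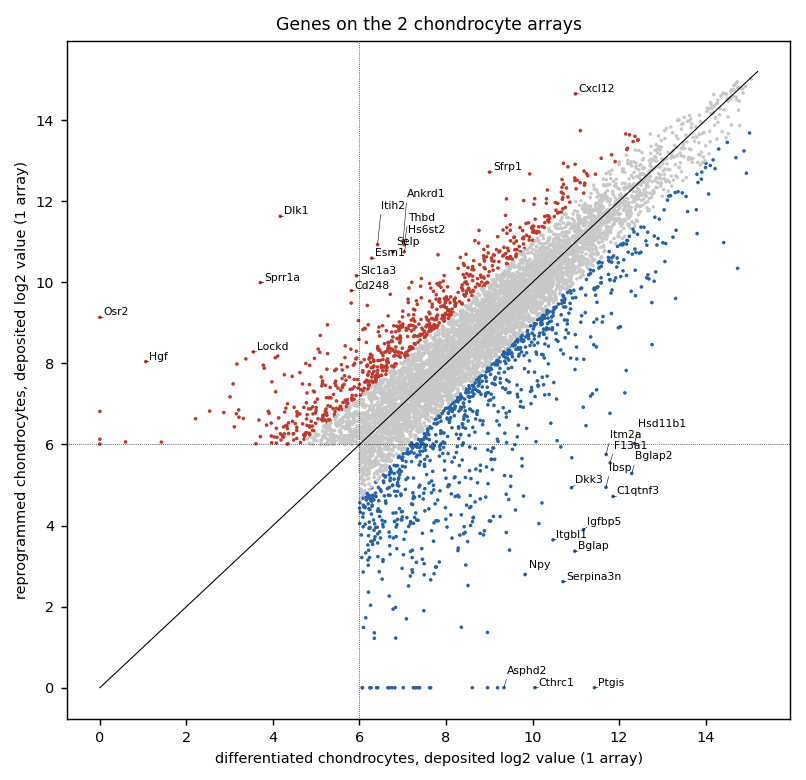
Deposited log2 values of 8248 genes on the differentiated chondrocyte array (horizontal axis) and the reprogrammed chondrocyte array (vertical axis), 1 gene a point, with genes at least 2-fold higher in red, at least 2-fold lower in blue, the line of equal values drawn and the level of 6 dotted. Labelled genes include Ptgis at 11.43 against 0.00 and Dlk1 at 4.17 against 11.63, and distances to values under the dotted lines are bounds.

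The labels were first set against marker genes. Sox9 was at 10.73 on the differentiated and 9.95 on the reprogrammed chondrocyte array, and at 10.57 and 8.41 on MSC d0 and MSC p4, a difference of -0.77 that turned to 1.34 when blocked. Col2a1, type II collagen, was at 9.77 and 10.48, with 7.38 and 9.08 on the MSC arrays, and its difference of 0.69 turned to -0.92 when blocked. Neither gene has a direction that holds in both calculations. Other cartilage markers were dim on the differentiated array: Acan (aggrecan) was at 5.66, Comp at 3.93, Col9a1 at 2.93 and Matn3 at 0.00. Hapln1, which links aggrecan to hyaluronan, was just above the level at 6.39 and at 0.00 on the reprogrammed and both MSC arrays. Bone markers were prominent on the same array, with Sp7 at 12.64, Ibsp at 11.70, Bglap at 10.98 and Alpl (alkaline phosphatase) at 10.57. On the differentiated osteocyte array the same genes stood at 8.58, 5.30, 6.46 and 5.33, so the array labelled as chondrocytes, not the one labelled as osteocytes, carried the higher bone marker levels. Runx2 and Spp1 were not analysed here. The osteocyte marker Dmp1 was dim on all 8 arrays, at 2.61 to 4.05. The names used below are those of the labels, with this limit.

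Of markers of other cells, the pan-leukocyte gene Ptprc (3.39 and 3.10), the macrophage receptor Csf1r (5.86 and 5.45), the endothelial genes Pecam1 (4.24 and 4.63) and Cdh5 (4.05 and 4.57) and the muscle factor Myod1 (2.28 and 2.82) were under the level on the differentiated and the reprogrammed chondrocyte array. The fat hormone gene Adipoq was not: it stood at 10.55 and 8.58, with 5.89 and 7.47 on MSC d0 and MSC p4 and 14.56 on the differentiated adipocyte array. Fabp4 (3.25 and 3.88) and Plin1 (3.72 and 0.00), which mark lipid-filled fat cells, were dim on both chondrocyte arrays. Scx, a transcription factor of tendon, was at 8.29 and 6.44, and the tendon gene Tnmd at 2.59 and 3.93. Ptprc and Csf1r do not stand for all macrophage and monocyte genes. Of 25 such genes with a probe, 9 reached the level on the differentiated and 3 on the reprogrammed chondrocyte array, as given further on.

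Bglap2, Bglap, Ibsp and Cthrc1 of the osteoblast, osteocyte and mineralization list were among the 15 most lower genes. That list holds 20 of the 8248 genes at the level. The ranking used the computed difference, in which a dim value stands as deposited, so its order is not that of the bounds. Bglap2, a copy of the osteocalcin gene, was at 12.29 on differentiated and 5.29 on reprogrammed chondrocytes, a reduction of at least 62.9-fold, with 5.35 on MSC d0, 3.99 on MSC p4 and 8.38 on differentiated osteocytes. Bglap was at 10.98 and 3.37, at least 25.4-fold lower by this probe, while its second probe gave a difference of only -2.74. These copies are nearly identical in sequence and their probes may share signal, so they are not independent. Ibsp, a mineral-binding glycoprotein of bone, was at 11.70 and 4.94, at least 41.7-fold lower, and lay between 4.25 and 5.30 on the other 6 arrays. On each of these genes the differentiated chondrocyte array was the highest of the 8, and the reprogrammed array was in the range of the MSC arrays or beside it. The promoters of Bglap and Ibsp and that of Dlk1, the largest difference in the other direction, are shown because they belong to the extremes of the comparison and because Bglap and Ibsp differed together. They are RefSeq windows of assembly GRCm38.p6, 300 bases long and spanning the annotated gene start, written 5′ to 3′ on the strand of the gene, with matches to the RUNX-type motif TGTGGT or to ACCACA, its other strand, in capitals.
Bglap, chr3:88384417-88384716, minus strand: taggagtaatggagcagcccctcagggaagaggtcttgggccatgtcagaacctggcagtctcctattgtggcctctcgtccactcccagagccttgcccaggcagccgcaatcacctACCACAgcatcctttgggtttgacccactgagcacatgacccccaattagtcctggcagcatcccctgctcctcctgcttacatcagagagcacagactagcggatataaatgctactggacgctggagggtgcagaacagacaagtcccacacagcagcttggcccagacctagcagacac
Ibsp, chr5:104299037-104299336, plus strand: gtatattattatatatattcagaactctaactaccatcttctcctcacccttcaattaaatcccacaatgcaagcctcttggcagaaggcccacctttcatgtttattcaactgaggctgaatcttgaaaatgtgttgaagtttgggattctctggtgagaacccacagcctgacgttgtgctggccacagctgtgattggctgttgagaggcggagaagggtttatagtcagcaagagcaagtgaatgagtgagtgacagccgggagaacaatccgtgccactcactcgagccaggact
Dlk1, chr12:109452573-109452872, plus strand: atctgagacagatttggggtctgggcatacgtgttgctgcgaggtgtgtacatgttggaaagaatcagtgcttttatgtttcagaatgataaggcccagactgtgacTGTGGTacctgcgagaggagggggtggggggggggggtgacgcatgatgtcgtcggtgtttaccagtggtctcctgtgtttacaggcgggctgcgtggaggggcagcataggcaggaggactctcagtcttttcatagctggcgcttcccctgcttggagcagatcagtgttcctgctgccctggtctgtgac
The motif stood once in the Bglap window, from base 119, once in the Dlk1 window, from base 108, and not in that of Ibsp. It was found in 2 of the 11 windows matched among the 15 most lower genes (18.2%), in 2 of 11 among the 15 most higher genes (18.2%) and in 4573 of all 27025 windows (16.9%). A match is a description of letters and not of a bound site.

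The other genes of the list of hypertrophic cartilage and bone formation through cartilage are given next. Mmp13 was at 14.74 and 10.35 (difference -4.38, MSC arrays 9.68 and 10.23). Panx3, a channel protein of hypertrophic chondrocytes and osteoblasts, was at 10.15 and 4.05, at least 14.4-fold lower. Alpl was at 10.57 and 6.09 (-4.19), and Pth1r, the receptor of parathyroid hormone and its related peptide, was at 9.39 and 4.77, at least 8.59-fold lower. Sp7 was at 12.64 and 10.11 (-2.51), still above both MSC arrays at 9.16. Col10a1, type X collagen of hypertrophic cartilage, was at 7.51 and 4.91, at least 2.48-fold lower. Of 15 genes of this list with a probe, 10 reached the level, 6 of them on the differentiated array alone, so that those could only be lower. Counted by size, 8 of the 10 were lower and none higher, 7 of them also at their bounds. The median was -3.25 over the 10 and -1.35 over all 15. None passed the replicated test described further on.

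Of 28 osteoblast, osteocyte and mineralization genes with a probe, 20 reached the level, 6 on the differentiated array alone and 1 on the reprogrammed array alone. Counted by size, 13 were lower and 1 higher, and the median was -1.47 (-0.72 blocked), or -0.88 over all 28. Cthrc1, a secreted collagen triple helix protein, was at 10.06 and 0.00 and at 2.48 to 3.99 on the MSC arrays, at least 13.5-fold lower. Phex, an endopeptidase of osteocytes that controls phosphate, was the gene that ran the other way, at 4.17 and 6.26, near the level on its brighter side. At their bounds 11 genes of the list were lower and 0 higher. Omd, a keratan sulfate proteoglycan of bone, was at 12.76 and 9.50 (-3.23), but its blocked difference was -0.51, since MSC d0 (10.56) and MSC p4 (7.75) differed nearly as much. Mgp, an inhibitor of mineralization, was at 14.94 and 12.69 (-2.25), and its blocked difference turned to 1.72, with 13.72 on MSC d0 and 9.72 on MSC p4.

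Of 29 genes of the Sox trio and cartilage matrix with a probe, 11 reached the level, 5 of them on the differentiated array alone, and 7 were lower and none higher, but only 2 lower at their bounds. The median was -1.46 over the 11 and -0.35 over all 29. Scrg1, a small secreted protein of cartilage, was at 6.71 and 3.29, and Snorc, a transmembrane proteoglycan of chondrocytes, at 6.15 and 1.72, both near the level on their brighter side. Fgfr3, the growth plate FGF receptor, was at 6.21 and 3.75. Bounds for these 3 genes were between 1.08-fold and 1.51-fold, so the size of the reduction cannot be read from them.

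**Figure D2:**
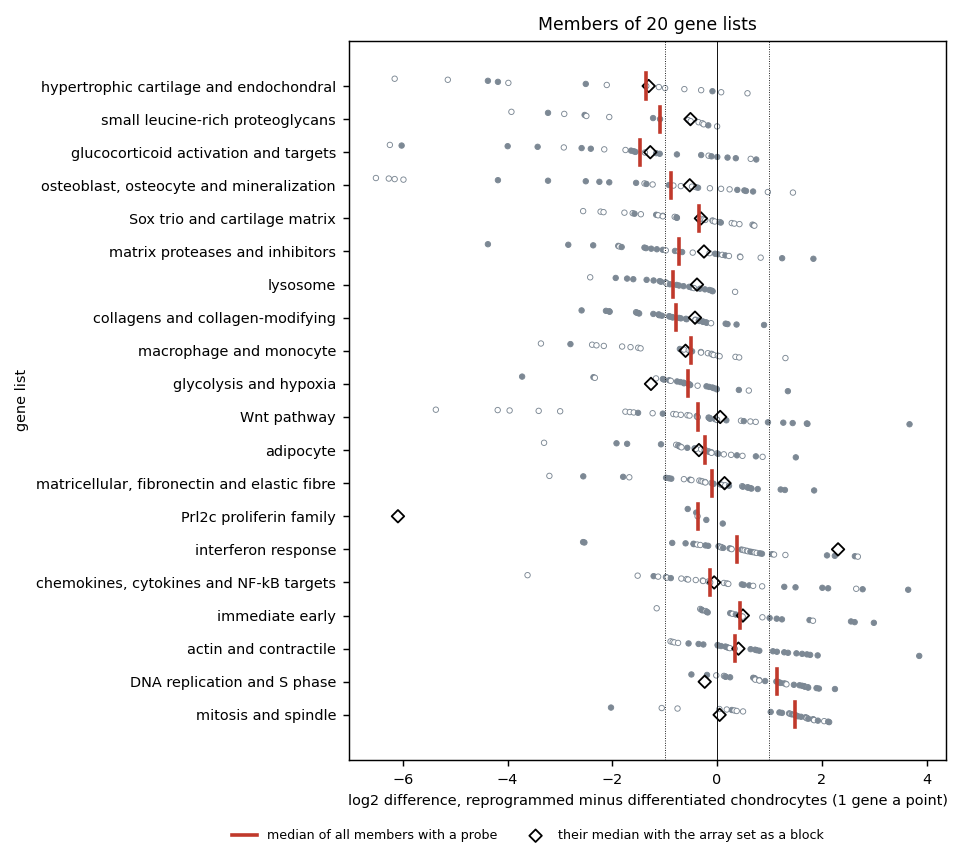
Log2 differences of all members with a probe of 20 gene lists (horizontal axis, reprogrammed minus differentiated chondrocytes), 1 gene a point (filled where both arrays reached the level of 6, open where not), with the median over all members as a red bar and the blocked median as an open diamond. The endochondral list has its median at -1.35 and the mitosis list at 1.48, while the blocked medians of the mitosis and S phase lists lie at 0.05 and -0.24 and that of the interferon list at 2.31.

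Extracellular matrix genes were lower on reprogrammed chondrocytes in the plain difference, and less so when blocked. Col1a1, the main chain of type I collagen, was at 12.37 on differentiated and 10.30 on reprogrammed chondrocytes (-2.06), with 10.41 and 9.25 on MSC d0 and MSC p4, and Col3a1 was at 13.24 and 11.11 (-2.12). Blocked, they fell short of 2-fold, at -0.92 and -0.998. Of 34 collagen and collagen-modifying genes with a probe, 32 reached the level, 30 of them on both arrays, and 13 were lower and none higher (median -0.85, blocked -0.51). Col8a2 was at 10.13 and 7.44 (-2.59, blocked -0.25), and Col15a1 at 9.44 and 7.28 (-2.05) with a blocked difference of 0.73. The small leucine-rich proteoglycans, which bind collagen fibrils, had 9 of 15 members at the level, 4 on the differentiated array alone, and 8 were lower (median -2.50, blocked -1.34, or -1.09 and -0.51 over all 15). Fmod (fibromodulin) was at 8.46 and 3.03, at least 4.59-fold lower, and Aspn (asporin) at 8.80 and 5.49, at least 5.76-fold lower. Dcn (decorin) was at 9.73 and 7.06 (-2.53), but at 10.68 on MSC d0 and 4.37 on MSC p4, so that the blocked difference was 2.96.

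Matrix proteases and their inhibitors had 19 of 27 members at the level, 17 on both arrays, with 11 lower and 2 higher (median -1.15, blocked -0.39, or -0.73 over all 27). After Mmp13 the largest reductions were in Mmp11, stromelysin 3, at 11.02 and 8.11 (-2.84), and Ctsk, the collagen-degrading cathepsin K, at 11.42 and 9.02 (-2.37). Mmp2, gelatinase A, was at 14.07 and 12.18 (-1.89, blocked -0.39). Among matricellular and elastic fibre genes, 21 of 32 reached the level and the median was -0.07, with 4 lower and 3 higher. Postn (periostin) was at 8.56 and 4.74, at least 4.92-fold lower, and Ccn4, a Wnt-induced secreted protein, at 11.61 and 9.02 (-2.56). Cemip, a hyaluronan-degrading protein, ran the other way at 8.64 and 10.54 (1.85), and on the reprogrammed array it was above both MSC arrays (9.44 and 8.91).

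Secreted and enzyme genes of other pathways stood among the 15 most lower genes. Ptgis, prostacyclin synthase, was at 11.43 on differentiated and listed at 0.00 on reprogrammed chondrocytes, with 4.12 and 0.00 on the MSC arrays and 6.5 and 6.69 on differentiated adipocytes and osteocytes. It was at least 34.7-fold lower. Hpgd, which inactivates prostaglandins and was not among the 15, was at 7.39 and listed at 0.00 on the reprogrammed and both MSC arrays. Its difference of -3.43 runs to a value under the level, so its size cannot be read. C1qtnf3, a secreted C1q-type protein, was at 11.86 and 4.72 (at least 46.7-fold), though its probes gave differences from -6.46 to -4.45. Igfbp5, which binds insulin-like growth factors, was at 11.18 and 3.90 (at least 29.1-fold). F13a1, the transglutaminase subunit of coagulation factor XIII, was at 11.79 and 5.55 (at least 44.6-fold), and at 0.00 to 5.88 on the other 6 arrays. The neuropeptide gene Npy was at 9.83 and 2.79 (at least 11.6-fold), Itm2a, an integral membrane protein, at 11.70 and 5.75 (at least 41.8-fold), Itgbl1, a secreted integrin beta-like protein, at 10.47 and 3.65 (at least 18.0-fold), and Asphd2 at 9.34 and 0.00 (at least 8.30-fold). Itgbl1 was also high on differentiated osteocytes, at 10.37, and its second probe gave a chondrocyte difference of only -2.675. On each of the 15 most lower genes except Serpina3n, Hsd11b1 and Itgbl1 the differentiated chondrocyte array was at least 2-fold above every other array.

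**Figure D3:**
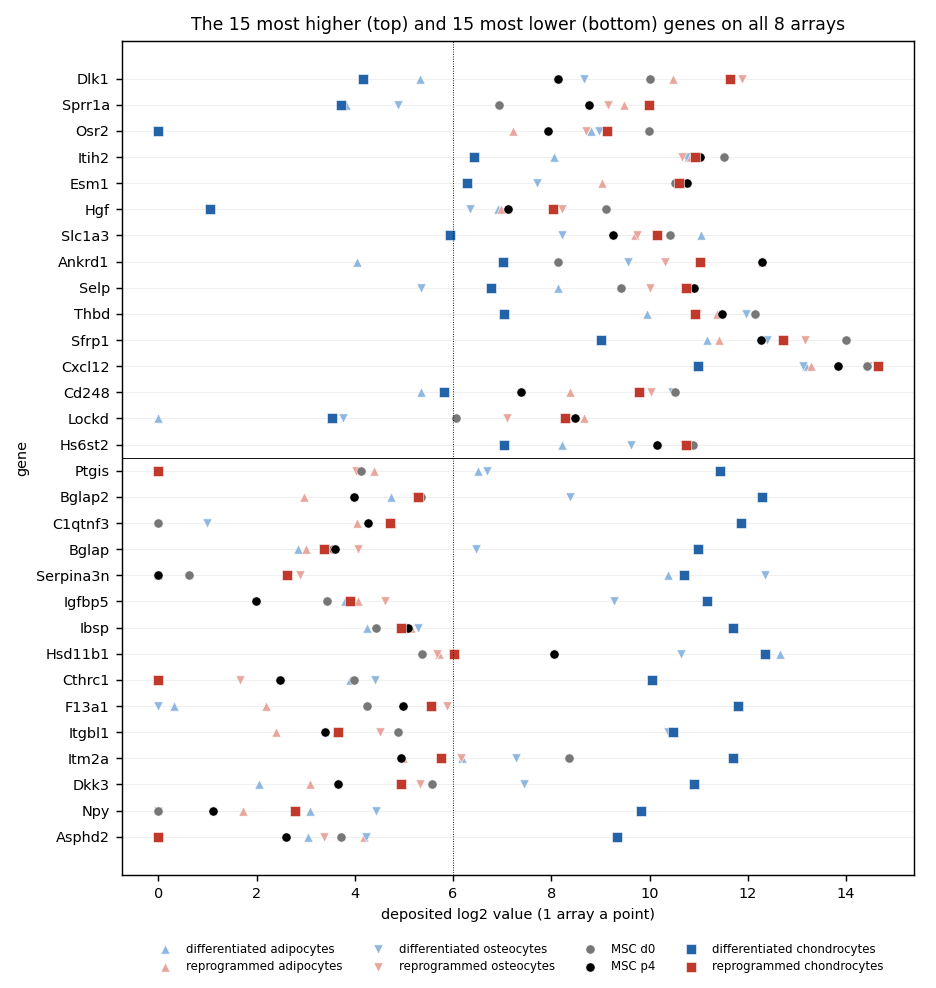
Deposited log2 values (horizontal axis) of the 15 most higher genes (above the line) and the 15 most lower genes (below it) on all 8 arrays, 1 array a point, with chondrocytes as squares, MSCs as circles, adipocytes and osteocytes as triangles and the level of 6 dotted. On most of the lower genes the differentiated chondrocyte array stands apart, with Ibsp at 11.70 against 4.25 to 5.30 on the others, and on most of the higher genes the reprogrammed array lies beside the MSC arrays.

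On the higher side Dlk1 was first. Dlk1 is an imprinted transmembrane protein related to Notch ligands that holds precursor cells back from becoming fat cells. It was at 4.17 on differentiated and 11.63 on reprogrammed chondrocytes, at least 39.8-fold higher, and at 10.02 and 8.15 on MSC d0 and MSC p4. On reprogrammed adipocytes and osteocytes it was at 10.48 and 11.89, and on the differentiated ones at 5.33 and 8.68. All 3 reprogrammed arrays were thus above all 3 differentiated ones, but the replicated test did not pass (log2 difference 4.80, SE 0.95, adjusted p = 0.0832, limma). A second Dlk1 probe gave a difference of 4.17. Among 20 imprinted growth genes with a probe, 10 reached the level, with 1 higher and 3 lower. Igf2, a growth factor expressed from the paternal allele, was lower at 12.76 and 8.46 (-4.24), with a blocked difference of -0.33 and 11.41 and 7.37 on MSC d0 and MSC p4.

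Transcription factors of limb and connective tissue were led by Osr2. Osr2, an odd-skipped zinc finger factor, was listed at 0.00 on differentiated and at 9.14 on reprogrammed chondrocytes, and at 7.21 to 9.99 on the other 6 arrays. It was at least 7.23-fold higher, and a second probe gave a difference of 3.18. The differentiated chondrocyte array was the 1 array of 8 under the level. Foxd1, a forkhead factor, was at 5.98 and 9.06 (at least 6.85-fold higher; MSC arrays 9.33 and 8.91), Gata6 at 8.04 and 9.89 (1.79), Osr1 at 6.29 and 8.15 (1.67) and Snai2 at 10.32 and 11.95 (1.62). Of 44 such factors with a probe, 26 reached the level, with 8 higher and 4 lower (median 0.47, blocked 0.56, or 0.18 over all 44). En1 (6.91 and 4.98) and Dlx5 (6.38 and 4.72), factors with roles in skeletal development, were among the 4 lower genes, but not at their bounds. The 2 that were lower at their bounds, Scx (-1.68) and Zeb1 (-1.09), reached the level on both arrays. Of 31 Hox genes with a probe, 8 reached the level, 2 of them higher and 2 lower. Hoxa5 was at 7.93 and 9.17 (1.19), Hoxa11 at 8.10 and 9.28 (1.13) and Hoxc6 at 10.33 and 9.22 (-1.09). Hoxb7 was at 7.17 and 5.99, and at 4.23 and 4.08 on the MSC arrays.

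The secreted factors Cxcl12, Hgf and Fgf7 were also higher. Cxcl12, the chemokine that retains blood stem cells in the marrow, was at 10.99 and 14.65 (3.65), with 14.43 and 13.83 on MSC d0 and MSC p4 and 13.13 to 14.45 on the adipocyte and osteocyte arrays. Hgf, the ligand of the receptor Met, was at 1.06 and 8.04, at least 3.50-fold higher. Fgf7, a growth factor for epithelium, was at 9.94 and 12.67 (2.72). The chemokines Ccl9 (7.82 and 10.68), Ccl2 (4.76 and 8.0) and Cxcl1 (7.32 and 9.54) and the macrophage growth factor Csf1 (8.28 and 10.34) lay on the same side. Ccl8 did not, at 8.61 and 4.10, at least 5.09-fold lower. Of 31 chemokine, cytokine and NF-kB target genes with a probe, 15 reached the level, with 7 higher and 3 lower (median 0.61, blocked 0.38, but -0.13 over all 31). Thbd, the thrombin receptor thrombomodulin, was at 7.03 and 10.93 (3.74), Selp, the adhesion molecule P-selectin, at 6.77 and 10.75 (3.79), and Cd248, a stromal surface glycoprotein, at 5.81 and 9.79 (at least 11.3-fold). Genes of MSC surface and marrow stroma lay on both sides: 14 of 25 reached the level, with 3 higher and 3 lower. Nt5e (CD73) was lower, at 10.65 and 8.33, and Thy1 (CD90) was under the level on both arrays, at 3.12 and 0.00.

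Wnt pathway genes lay on both sides. The secreted antagonists Sfrp1 at 9.0 and 12.72 (3.67) and Sfrp2 at 10.32 and 12.06 (1.73) were higher, as was the ligand Wnt10b at 6.23 and 8.15 (1.71). On the other side Axin2, a feedback inhibitor and common readout of the pathway, was at 7.71 and 3.61, Nkd2 at 9.50 and 4.97, the R-spondin receptor Lgr5 at 8.67 and 4.58 and Notum, which inactivates Wnt proteins, at 6.54 and 4.03. The ligand Wnt4 was at 8.36 and 1.49 (at least 4.29-fold lower), and Dkk3, a Dickkopf family member, at 10.90 and 4.93 (at least 24.1-fold). Of 38 pathway genes with a probe, 24 reached the level, 10 of them on the differentiated array alone, with 5 higher and 11 lower (median -0.50, or -0.37 over all 38). Blocked, 9 were higher and 10 lower (median 0.08). In the replicated test Axin2 fell in reprogrammed cells (-2.92, SE 0.43, adjusted p = 0.0457, lower in 3 of 3 lineages), and so did Porcn, the enzyme that lipidates Wnt proteins, at 10.98 and 7.85 in chondrocytes (-3.51 in the test, SE 0.46, adjusted p = 0.0331).

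BMP and TGF-beta pathway genes had 25 of 37 members at the level, 2 higher and 8 lower, 4 of these at their bounds (median -0.61, blocked -0.12, or -0.37 over all 37). Tgfb1 was at 9.05 and 5.64, at least 6.82-fold lower. Fst, which traps activins, was at 9.20 and 6.08 (-2.86), and Nog, the BMP antagonist noggin, at 6.19 and 3.15. Id2, a BMP-responsive inhibitor of helix-loop-helix factors, was higher at 8.40 and 10.46 (2.01), with a blocked difference of 0.04. Of the IGF axis, 5 of 10 genes at the level were lower and Igf1 was higher, at 6.44 and 8.33 (1.72). Htra1, a protease of secreted matrix, was at 12.03 and 8.90 (-3.08). Among FGF genes Fgfr2 was at 11.34 and 7.2 (-4.01), on each chondrocyte array above both MSC arrays (5.90 and 5.53). It fell across the 3 lineages as well (-3.45, SE 0.48, adjusted p = 0.0381).

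The replicated test set the 3 reprogrammed against the 3 differentiated arrays, with the MSC arrays sharing the estimate of spread and lineages standing as replication (limma, two-sided, Benjamini-Hochberg). Among 9069 genes, 14 (0.154%) rose and 28 (0.309%) fell at an adjusted p under 0.05, against 916 and 1024 at an unadjusted p under 0.05. Every one of these 42 was at least 2-fold the same way in the chondrocyte pair, which is part of the test and so no separate evidence. Serpina3n, a secreted protease inhibitor, was at 10.70 on differentiated and 2.62 on reprogrammed chondrocytes and fell by 6.79 on the log2 scale across lineages (SE 0.49, adjusted p = 0.0038). Vldlr, the very low density lipoprotein receptor, was at 10.65 and 5.94 (-4.44 across lineages, SE 0.37, adjusted p = 0.0081), and Mertk, a receptor kinase for the uptake of dying cells, at 9.35 and 5.23 (-3.50, SE 0.35, adjusted p = 0.017). Aldh1a7, an aldehyde dehydrogenase, was at 9.61 and 4.38 (-6.26, SE 0.68, adjusted p = 0.0224). Sprr1a, a small proline-rich protein known from the keratinocyte envelope, rose, with 3.71 and 9.99 in chondrocytes (4.48 across lineages, SE 0.46, adjusted p = 0.0182). So did Nefm, a neurofilament subunit (4.06 and 8.14; 2.93, SE 0.40, adjusted p = 0.0356), and Crabp1, which binds retinoic acid in the cytoplasm (3.8 and 7.88; 3.39, SE 0.44, adjusted p = 0.0331). Vldlr, Mertk, Porcn and Nefm were named after their values had been seen.

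These calls rested on the arrays and on the model. No gene passed with array set as a block (182 at an unadjusted p under 0.05), and with lineage as a block on 6 arrays 3 passed, Serpina3n and Vldlr among them. The count was 148 without differentiated adipocytes, 11 without either MSC array, 34 without differentiated chondrocytes or differentiated osteocytes, 2 without reprogrammed adipocytes and 1 without reprogrammed osteocytes or reprogrammed chondrocytes. Fkbp5 was called in each of these 8 fits and Serpina3n in 6.

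Genes of glucocorticoid activation and response, Serpina3n included, were 8 of the 28 that fell among all 9069 genes (0.309%). Fkbp5, which acts with Hsp90 on steroid receptors and is induced by glucocorticoids, was at 11.38 on differentiated and 7.25 on reprogrammed chondrocytes, with 6.76 and 7.31 on the MSC arrays, and fell across lineages by 4.18 (SE 0.26, adjusted p = 0.0024). Hsd11b1, which regenerates active glucocorticoid, was at 12.36 and 6.02 (-5.72 across lineages, SE 0.68, adjusted p = 0.0246). Its 4 probes gave chondrocyte differences from -6.02 to -2.63. Tsc22d3 (GILZ), an anti-inflammatory target, was at 12.69 and 10.09, the clock gene Per1 at 9.18 and 6.58, the metallothionein Mt2 at 8.27 and 4.75, the zinc finger gene Zbtb16 at 6.36 and 3.72 and the Krüppel-like factor Klf9 at 12.24 and 11.14. All 5 fell, with adjusted p between 0.0249 and 0.0476. Gpx3, a secreted glutathione peroxidase, was at 14.42 and 10.98 (-3.43) without passing the replicated test. Of 24 genes of glucocorticoid activation and response with a probe, 21 reached the level, 17 on both arrays. In the chondrocyte pair 14 were lower and none higher (median -1.56, blocked -1.29, or -1.47 over all 24). In the replicated test 8 of the 21 fell and none rose, against 0.309% falling over all genes. Of the 21, 4 reached the level on the differentiated chondrocyte array alone, Serpina3n, Mt2 and Zbtb16 among them, so those could only be lower in the pair. The share of the list that fell is therefore not read as an excess over all genes. The list was chosen with earlier results of these data known.

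**Figure D4:**
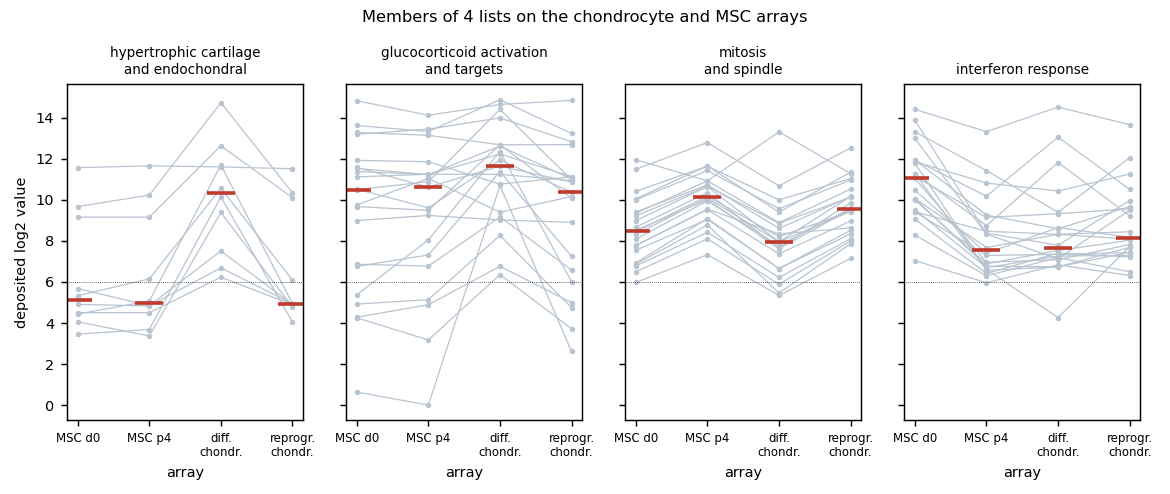
Deposited log2 values (vertical axis) of the members of 4 gene lists on the arrays of MSC d0, MSC p4, differentiated and reprogrammed chondrocytes, 1 line a gene, with the median as a red bar and the level of 6 dotted. Endochondral and glucocorticoid genes peak on the differentiated array, mitosis genes are higher on MSC p4 and reprogrammed chondrocytes than on the other 2 arrays, and interferon genes are highest on MSC d0.

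Proliferation genes were higher in reprogrammed than in differentiated chondrocytes, and also higher on MSC p4 than on MSC d0. Of 31 mitosis and spindle genes with a probe, 22 reached the level, 3 of them on the reprogrammed array alone, and 20 were higher and 1 lower, with a median of 1.58. Cdc20, which activates the anaphase-promoting complex, was at 7.96 and 10.17 (2.14), and at 8.99 on MSC d0 and 10.65 on MSC p4. Top2a, a topoisomerase of chromosome condensation, was at 7.65 and 9.86 (2.12), with 8.68 and 10.35 on the MSC arrays, and Kif11, a spindle motor, at 5.46 and 7.86, at least 3.10-fold higher. Kif23, a motor of cytokinesis, was the lower member at 13.32 and 11.28, but it turned to a higher value with the mean of all its probes (0.63). Of 32 DNA replication and S phase genes with a probe, 29 reached the level, 17 of them higher and none lower, with a median of 1.18. Over all members with a probe the medians were 1.48 and 1.15. The blocked medians of the mitosis and replication lists were 0.11 and -0.20. Mcm7 (6.45 and 8.90) and Mcm5 (8.87 and 10.81), subunits of the replicative helicase, and Cdc6 (6.77 and 8.65), which loads it, had blocked differences of -0.13, -0.080 and -0.40. State and array set cannot be told apart for these lists.

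Interferon response genes gave different answers with and without the block. Of 36 genes with a probe, 22 reached the level, 21 on both chondrocyte arrays, and 5 were higher and 2 lower, with a median of 0.18 (0.37 over all 36). Blocked, the median was 2.39 and 18 of the 22 were at least 2-fold higher. The difference between the calculations came from the MSC arrays, whose median level over the 36 genes was 9.69 on d0 and 6.59 on p4, against 6.96 and 7.37 on differentiated and reprogrammed chondrocytes. Ifit3, an interferon-induced antiviral gene, was at 7.79 and 9.97 on the chondrocyte arrays and at 13.89 and 8.37 on MSC d0 and MSC p4. Isg15, a ubiquitin-like modifier, was at 4.26 and 7.72 (at least 2.84-fold higher), and Gbp2, a guanylate-binding protein, at 9.40 and 12.06 (2.63). The class I genes H2-K1 (11.82 and 9.23) and H2-D1 (13.06 and 10.51) were lower, but their blocked differences were -0.080 and -0.79, and 0 of the 22 were at least 2-fold lower when blocked. The proliferin family also depended on the block: Prl2c2, Prl2c3 and Prl2c4, near-identical genes whose probes may share signal, differed by -0.21, -0.56 and -0.40 in the pair and by -6.28, -6.14 and -6.10 when blocked, with Prl2c2 at 7.53 on MSC d0 and 13.73 on MSC p4.

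Actin and contractile genes had no member at the level that was 2-fold lower with or without the block. All 22 genes at the level, of 29 with a probe, were at it on both arrays, and 10 were higher and none lower (median 0.78, or 0.34 over all 29). Blocked, 5 were higher (median 0.70). Tpm2, a tropomyosin, was at 10.34 and 12.28 (1.92), Cnn2, a calponin, at 9.41 and 11.21 (1.78, blocked 0.45), Flna, filamin A, at 8.98 and 10.72 (1.72, blocked 0.92), and Myl9, a myosin light chain, at 9.71 and 11.35 (1.62). Ankrd1, an ankyrin repeat protein induced by mechanical load, had the largest difference, at 7.01 and 11.03 (3.86), but its blocked difference was -0.23, with 8.13 on MSC d0 and 12.29 on MSC p4. Immediate early genes had 16 of 22 members at the level, with 8 higher and none lower (median 0.73, blocked 0.91, or 0.44 over all 22). Egr3 was at 6.18 and 9.43 (2.99), Egr1 at 11.11 and 13.74 (2.63) and Fos at 7.43 and 10.09 (2.56). The MSC arrays had Egr3 at 10.44 and 10.09, Egr1 at 14.07 and 13.86 and Fos at 10.28 and 9.25, so the differentiated chondrocyte array was the low one.

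Most macrophage and monocyte genes were under the level on both chondrocyte arrays. Of 25 with a probe, 9 reached it, 6 on the differentiated array alone, so that those could only be lower. By size 7 were lower and none higher, and 4 were lower at their bounds. The median was -2.16 over the 9 and -0.50 over all 25. The number at the level was 9 on the differentiated chondrocyte array, 3 on the reprogrammed one, 4 on MSC d0 and 2 on MSC p4. The summed linear signal of all 25 was 13099, 7276, 5881 and 13422. MSC p4 had the largest sum with only 2 genes at the level, so the sum rests on few bright genes and is not read as macrophage RNA. Laptm5, a lysosomal protein of blood cells, was at 8.14 and 3.69, Lyz2 (lysozyme) at 8.0 and 5.17, Ctss (cathepsin S) at 7.17 and 4.04 and C1qc at 6.09 and 1.49. The defining genes Ptprc and Csf1r were under the level on both arrays. Flt1, a VEGF receptor, was the 1 endothelial gene of 15 at the level, at 8.50 and 3.61. Lysosome genes, which macrophages and matrix-resorbing cells express strongly, had 23 of 24 members at the level, with 8 lower and none higher (median -0.90, blocked -0.38, or -0.84 over all 24). The part of macrophage RNA in the differences of Ctsk, the complement genes and the lysosome list was not tested. Of the complement and acute phase list, 8 of 14 reached the level, 5 on the differentiated array alone, with 6 lower, also at their bounds. Serping1, the C1 inhibitor, was at 8.51 and 2.52 (at least 4.75-fold lower). C1s1, a complement protease, ran the other way at 3.96 and 6.53, but was not 2-fold higher at its bound.

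The glycolysis and adipocyte lists had more lower members with the block than without it. Glycolysis and hypoxia genes had 22 of 25 members at the level, with 1 higher and 6 lower (median -0.59), and 1 higher and 17 lower when blocked (median -1.39). They were led by Egln3, an oxygen-sensing prolyl hydroxylase, at 10.08 and 6.07 (-3.72), and Pfkp, a phosphofructokinase, at 9.66 and 7.17 (-2.36). Medians were 0.20 for 26 respiratory chain genes and 0.15 for 26 genes of folding and secretion in the endoplasmic reticulum. Among 15 adipocyte genes at the level, of 30 with a probe, 1 was higher and 4 lower (median -0.57), and 1 and 8 when blocked (median -1.42, or -0.35 over all 30). Cidec, a lipid droplet protein, was at 7.72 and 2.81, and Lpl, lipoprotein lipase, at 12.15 and 13.66. Epigenetic enzymes had 5 of 18 genes higher and none lower (median 0.43, blocked 0.23), with the histone methyltransferase Ezh2 at 6.92 and 8.81 and the maintenance methyltransferase Dnmt1 at 8.07 and 9.32 (blocked differences 0.24 and 0.02). Of 24 pluripotency genes with a probe, 5 reached the level. Klf5 was lower at 9.39 and 6.77, and Klf4 was at 9.06 and 9.49.

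The reprogrammed array lay inside the range spanned by both MSC arrays for 4795 of 8248 genes (58.1%). It was within 2-fold of that range for 712 of the 717 higher genes, 957 of the 963 lower genes and 8234 of all 8248. The differentiated array was more than 2-fold above both MSC arrays for 592 of the 963 lower genes (61.5%) and below both for 229 of the 717 higher genes (31.9%). Over all 8248 genes the shares were 7.42% above and 3.10% below. The higher and lower genes were chosen on their difference from this same array, which partly fixes the side. For the others it lay within 2-fold of the MSC range. By the same size rule reprogrammed chondrocytes had 113 genes higher and 38 lower than MSC p4 and 265 and 315 than MSC d0, while MSC p4 had 560 higher and 688 lower than MSC d0. These comparisons share arrays.

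The reprogrammed array was at least 2-fold above both MSC arrays for 13 genes and below both for 1. Dlk1 was 1 of the 13. Dpep1, a membrane dipeptidase, was at 10.75 on differentiated and 8.63 on reprogrammed chondrocytes, against 6.47 and 6.09 on the MSC arrays. On reprogrammed osteocytes and adipocytes it was at 8.66 and 5.97. Tnc, the matricellular protein tenascin C, was at 11.40 and 10.41 against 7.76 and 8.96, and was above both MSC arrays on each chondrocyte array while the pair differed by less than 2-fold (-0.98). The transcript B230209E15Rik was the other such gene, at 6.69 and 5.77. On reprogrammed osteocytes and adipocytes Tnc was at 10.28 and 10.19, and on the differentiated ones at 4.81 and 4.11. Whether any level was kept from the differentiated state was not tested. The others of the 13 were Nefm, Ier2, Col2a1, Sprr1a, Hoxb7, Fgfr2, Cemip, Adipoq and Hspb7. Ptx3, a secreted pentraxin, was the gene below both, at 9.25 and 8.04 against 9.65 and 9.93. Dpep1, Tnc, B230209E15Rik, Hspb7 and Ptx3 were named after their values had been seen.

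The same pair of labels in adipocytes gave 1414 genes higher (17.1%) and 1487 lower (18.0%) of 8281. In osteocytes it gave 680 (8.35%) and 962 (11.8%) of 8142. Of the 717 genes higher in the chondrocyte pair, 214 were also at least 2-fold higher in both other pairs, and of the 963 lower genes 170 were lower in both. A set of 30 genes ran at least 2-fold one way in chondrocytes and at least 2-fold the other way in both other lineages. Of these, 23 were lower and 7 higher in chondrocytes. The share of all genes at least 2-fold apart in both other pairs was not counted, so these counts are not read as many or few. Capn6, a calpain-like protein without protease activity, was at 11.79 and 6.77 in chondrocytes (-4.83), at 3.83 and 5.54 in adipocytes (1.05) and at 4.60 and 6.21 in osteocytes (1.16). Col1a1 differed by -2.06 in chondrocytes and by 5.29 and 3.26 in adipocytes and osteocytes, and Col10a1 by -2.11, 1.37 and 1.05. Fos differed by 2.56 in chondrocytes and by -3.33 and -1.60 in the other pairs. The difference itself was tested across all genes (limma, chondrocyte change minus the mean change of the other 2 lineages), and no gene passed: 110 were above 0 and 304 below at an unadjusted p under 0.05, and the smallest adjusted p was 0.407. Lone chondrocyte arrays were assumed in that test to vary like the others, and nothing here can be called particular to chondrocytes.

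**Figure D5:**
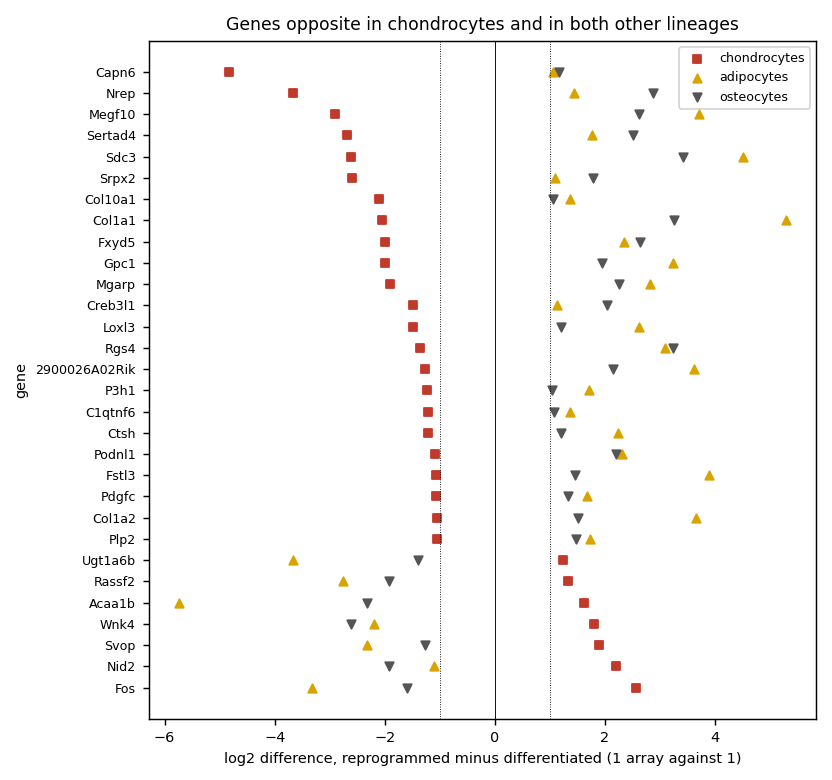
Log2 differences, reprogrammed minus differentiated (horizontal axis), in chondrocytes, adipocytes and osteocytes for the 30 genes that were at least 2-fold one way in chondrocytes and at least 2-fold the other way in both other lineages, 1 array against 1 for each point. Capn6 is at -4.83 in chondrocytes against 1.05 and 1.16, and Fos at 2.56 against -3.33 and -1.60, and none of the 30 passed the test of the difference.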

How the data were processed

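Total RNA was extracted with a Qiagen RNeasy kit and amplified to biotin-labelled cRNA for Illumina arrays, per the labels' protocols. The values used were the log2 values deposited by the authors for 45281 probes. How they were background-corrected and normalized, and in which software, is not given in the sources used here. Ranked values above 2 differed between arrays by no more than 0.0175, so arrays had been brought to 1 distribution. A second table, of unnormalized signals, had 16 value columns that could be matched to no sample's label, and none was used.

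Probes were named through the platform annotation (34885 with 1 symbol, 18 with several, 10378 with none), and 34807 Entrez identifiers were matched to the RefSeq genes of GRCm38.p6, whose symbols were used. Deposited values x became log2(2 to the power x, plus 16), and the probe of highest mean over the 8 arrays stood for its gene. Genes at a deposited value of 6 on at least 1 chondrocyte array entered the comparison (8248 of 19057 with a probe). Where the dimmer array was under 6, "at least N-fold" divides the brighter array's value by the dim array's, raised to 6.32 (the offset level of 6) where it was lower.

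limma 3.58.1 in R 4.3.3 (lmFit and eBayes, two-sided, Benjamini-Hochberg at 0.05) tested 9069 genes at the level on at least 1 of 8 arrays, with MSC, differentiated and reprogrammed arrays as groups. It also tested the change in chondrocytes against the mean change of the other 2 lineages. Its p-values measure the spread between these arrays, which lineage and technique share. The tests were tried on simulated data with independent noise and no lineage or array set structure. That trial cannot show how they behave on these arrays. Array number limits the precision.

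The gene lists, marker genes and comparison were chosen with earlier results of these data known, so a list's direction is no independent evidence. Genes named were taken from the 15 largest differences in each direction, the 4 largest of each list and the markers, and not every such gene was named. Itih2, Esm1, Slc1a3, Lockd and Hs6st2 of the most higher genes and the markers Pdgfra and Eng were not described. Others, among them further list members, were named after their values had been seen. Alternatives were no offset, an offset of 64, the mean of all probes, a level of 7, no filter, the array set as a block, lineage as a block and each array left out.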

Additional observations from a re-analysis of the deposited data

Results flagged for a closer look

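A few named genes were at least 2-fold one way in the chondrocyte pair and at least 2-fold the other way in both other lineages, with 1 array against 1 in each. Capn6 differed by -4.83 in chondrocytes and by 1.05 and 1.16 in adipocytes and osteocytes. Col10a1 differed by -2.11 against 1.37 and 1.05, and Col1a1 by -2.06 against 5.29 and 3.26. Fos ran the other way, by 2.56 against -3.33 and -1.60. The difference between lineages was tested with limma across 9069 genes, and none of these genes passed (smallest adjusted p of any gene 0.407, 414 genes at an unadjusted p under 0.05). With 1 array a lineage and state, missing that threshold does not show that the lineages acted alike.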

How the results depend on the processing

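The counts of genes at least 2-fold apart stayed within 1.5 times of 717 and 963 under every alternative run, between 498 and 951 higher and between 675 and 1263 lower. The count of 42 genes called between reprogrammed and differentiated arrays of 3 lineages was 26 with no offset. It was 54 with the level on at least 2 of 8 arrays. With lineage as a block on 6 arrays it was 3, and with the array set as a block 0. With each array left out in turn it ran from 1 to 148. The test of a difference between lineages called 0 to 0 genes there and 0 under the other alternatives, and was not run without a chondrocyte array, where the contrast has no value. Once each MSC array had been subtracted from the chondrocyte array of its set, the median of the DNA replication and S phase list turned to -0.20. Of 155 named genes 10 changed sign, Sox9 (1.34), Sox5 (1.09) and Col2a1 (-0.92) among those under 2-fold before. The others were Ankrd1 (-0.23), Cdc6 (-0.40), Mcm5 (-0.080), Mcm7 (-0.13), Col15a1 (0.73), Dcn (2.96) and Mgp (1.72), and the cause was not tested beyond that subtraction. Kif23 turned to 0.63 with the mean of all its probes. Of the 155, 118 kept their direction and their side of 2-fold under that subtraction, 145 with an offset of 64 and 155 with no offset. Arrays of a lineage were paired in the fit with lineage as a block, and for the chondrocyte pair alone no paired analysis was possible because each group is 1 array.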

Other observations

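Genes outside the lists described so far also differed in size between the chondrocyte arrays. Of 20 CDK inhibitor, senescence and p53 target genes with a probe, 19 reached the level, with 6 higher and 2 lower and a median of -0.04, but 0.12 over all 20. Lmnb1, the lamin lost in senescent cells, was at 8.75 on differentiated and 10.97 on reprogrammed chondrocytes (2.17), and Ccnd2, a D cyclin, at 10.72 and 12.42 (1.69). Cdkn1a, the CDK inhibitor p21, was lower, at 12.62 and 11.02 (-1.59), with 11.54 and 11.23 on MSC d0 and MSC p4. Among integrin genes 8 of 18 reached the level, and Itga11, a collagen receptor subunit, was at 12.13 and 7.27 (-4.72, blocked -2.45), while Itgb1 was at 7.61 and 9.26 (1.58, blocked 0.52).

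Retinoid genes had 10 of 23 members at the level, with 2 higher and 3 lower. Aldh1a2, which makes retinoic acid in mesenchyme, was at 7.34 and 9.46 (2.02), and Aldh1a1 at 8.48 and 4.50, at least 4.65-fold lower. Rbp4, which carries retinol in plasma, was at 7.72 and 4.07, at least 2.84-fold lower. Of 14 osteoclast genes 5 reached the level, and Nfatc1, a transcription factor of osteoclasts, was at 9.84 and 8.40 (-1.39). None of the 14 Schwann, neural and muscle genes with a probe reached the level on either chondrocyte array.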
